A study of Mus musculus with 98 samples.

Results

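The Kruppel-like factor genes Klf2, Klf4, Klf5 and Klf11 were followed in RNA sequencing of mouse totipotent blastomere-like cells (TBLC), 4 of the 21812 gene symbols in each count table. Klf2, Klf4 and Klf5 were picked as naive pluripotency factors with short-lived mRNA, and Klf11 for its enrichment in Igf2bp3 immunoprecipitates. The members were thus chosen by measured values of these libraries, their loss of mRNA within an arm under actinomycin D and the Igf2bp3 enrichment, which are described without a test. Differences in loss between arms were tested, but for Klf2, Klf4 and Klf5 they come from the same libraries and so are not independent of the choice. All 4 members passed the filter on low counts in every table.

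Kruppel-like factors (KLF) are zinc-finger proteins that bind GC-rich and CACCC sequences in promoters and enhancers. Klf2, Klf4 and Klf5 hold mouse embryonic stem cells in the naive state together with Esrrb, Nanog and Tfcp2l1, and Klf4 is a known target of LIF and STAT3 signalling. Klf5 is also needed for trophectoderm and limits primitive endoderm (PrE) formation in the blastocyst, while Klf11 is a TGF-beta-inducible repressor that recruits the Sin3a corepressor. The m6A mark on mRNA is written by a complex that holds the catalytic subunit Mettl3 and the scaffold Virma, Ythdf2 binds marked transcripts and promotes their decay, and Igf2bp3 is known to stabilise transcripts it binds.

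Of 98 samples, 86 had counts, and every group held n = 2. In 1 table, CD140+ cells (PrE-T) and CD140- cells (EPI-T), both sorted after 3 days in SLM medium, stand beside TBLC in 2MYCP medium. Unsorted cells after 3 days in SLM are called diffTBLC. They received the siRNAs siVirma, siMettl3 or siNC, or were used for immunoprecipitation of RNA (RIP) with antibodies against Igf2bp3 or Ythdf2, each with its input. Actinomycin D, which blocks transcription, was given in 4 courses read at 0, 1, 2 and 3 h: diffTBLC against TBLC, TBLC_PlaB- (8 h in SLM) against TBLC_Ctrl (2MYCP), siVirma against siNC1, and siIgf2bp3 against siNC2, the siRNA courses in diffTBLC. The cell line behind these cultures and whether replicates were separate cultures are not given, so every p-value rests on the spread of these libraries alone, which may be technical.

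Library totals ran from 2483808 to 29471283 counts. Some libraries stood apart or went against their labels. Between 0 and 1 h, 329 genes rose and 548 fell at least 2-fold in siNC1, of 8853 genes, and 849 rose and 605 fell in siNC2, of 8857, where no other arm had more than 2 that rose. The summed level of 8 PrE markers, in library-scaled counts (CPM), was 2788 to 3451 at 1 h in these control arms but 1830 to 1894 CPM at 0 h. At 0 h siNC1 and siNC2 libraries differed with an SD of 0.13 to 0.14 on the log2 scale, against 0.11 to 0.14 between replicates. They were further apart than replicates later, at 0.18 to 0.19 against 0.10 to 0.11 at 1 h. At 3 h the SD was 0.23 to 0.25, against 0.13 to 0.15 between replicates. Whether the controls of the 2 siRNA courses are independent was not tested, so the courses are not counted as independent of each other. Virma was lower in both sets of siVirma libraries (-0.50 ± 0.085, adjusted p = 1.88e-06, without actinomycin D). Mettl3 did not pass in the libraries labelled siMettl3 (-0.18 ± 0.15, adjusted p = 0.771). Igf2bp3 was higher at 0 h in the libraries labelled siIgf2bp3 (0.56 ± 0.079, adjusted p = 2.84e-07) and lower over 1 to 3 h (-0.58 ± 0.041, adjusted p = 1.49e-13). Differences in these 2 courses are given at 0 h and, without it, as the mean of 1 to 3 h. Their slopes over 0 to 3 h include the 0 h libraries and are given beside slopes over 1 to 3 h.

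The promoter windows of the 3 members matched in RefSeq (GRCm38.p6) show the GC-rich sequence of these genes, 250 bases up to the transcription start, 5′ to 3′ on the gene's own strand. They are shown because Klf2 and Klf4 fell together on differentiation of the unsorted cells while Klf11 did not pass. Capitals mark GC boxes (GGGCGG or CCGCCC) and CACCC boxes (CACCC or GGGTG), that is, both strands, with overlapping matches counted.
Klf2 (chr8:72318812-72319061, plus strand): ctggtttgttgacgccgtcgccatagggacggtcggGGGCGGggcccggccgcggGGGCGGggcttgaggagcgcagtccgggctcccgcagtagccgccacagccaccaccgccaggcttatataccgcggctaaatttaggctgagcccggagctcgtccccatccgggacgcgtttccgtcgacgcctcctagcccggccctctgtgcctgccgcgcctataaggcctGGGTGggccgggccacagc
Klf4 (chr4:55532476-55532725, minus strand): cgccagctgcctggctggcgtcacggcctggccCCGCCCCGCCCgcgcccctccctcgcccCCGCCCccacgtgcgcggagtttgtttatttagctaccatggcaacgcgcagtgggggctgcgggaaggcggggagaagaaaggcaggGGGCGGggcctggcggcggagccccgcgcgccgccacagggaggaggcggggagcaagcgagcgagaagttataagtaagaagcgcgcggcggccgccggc
Klf11 (chr12:24651121-24651370, plus strand): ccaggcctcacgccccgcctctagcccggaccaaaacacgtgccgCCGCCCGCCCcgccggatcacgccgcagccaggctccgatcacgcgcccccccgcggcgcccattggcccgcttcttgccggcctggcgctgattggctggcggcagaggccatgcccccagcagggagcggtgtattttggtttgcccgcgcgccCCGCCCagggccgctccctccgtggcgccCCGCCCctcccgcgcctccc
The Klf2 window held 2 GC boxes and 1 CACCC box, and the windows of Klf4 and Klf11 held 4 GC boxes each. Of 32851 windows of this length, 32.7% held a GC box and 52.0% a CACCC box. The STAT palindrome TTCNNNGAA was in none of the 3 windows and in 7.02% of all. G and C made up 71.2% of the Klf2, 74.0% of the Klf4 and 76.8% of the Klf11 window.

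Klf2, Klf4 and Klf5 all separated PrE-T from EPI-T, with Klf2 lower and Klf4 and Klf5 higher in PrE-T. Levels are in CPM, scaled within each table. Klf2 had 8.88 and 8.35 CPM in PrE-T, against 50.3 and 43.4 CPM in EPI-T and 56.8 and 52.7 CPM in TBLC. The groups did not overlap, and PrE-T fell by 2.44 ± 0.12 on the log2 scale against EPI-T (adjusted p = 8.10e-12) and by 2.67 ± 0.12 against TBLC (adjusted p = 3.81e-12). Klf4 had 212 and 171 CPM in PrE-T, 125 and 134 CPM in EPI-T, and 216 and 217 CPM in TBLC. PrE-T was thus above EPI-T for Klf4 (0.56 ± 0.080, adjusted p = 7.48e-06), in both libraries.

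Klf5 was highest in PrE-T among the 3 groups, at 744 and 684 CPM, against 553 and 515 CPM in EPI-T and 404 and 405 CPM in TBLC. Each step in this order passed: PrE-T against EPI-T at 0.42 ± 0.055 (adjusted p = 3.08e-06) and EPI-T against TBLC at 0.40 ± 0.055 (adjusted p = 6.36e-06). Klf11, the repressor gene, was level, with 11.6 and 11.2 CPM in PrE-T, 12.1 and 12.8 CPM in EPI-T, and 11.1 and 10.7 CPM in TBLC, and passed in none of the 3 comparisons (adjusted p 0.310 to 0.746). In PrE-T against EPI-T, 3 of 4 members passed, where 68.6% of 14373 genes did, so the count says little of the members.

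Against TBLC Klf2 and Klf4 were lower and Klf5 higher in both sorted populations, but not every difference passed. Klf4 fell in EPI-T by 0.74 ± 0.080 (adjusted p = 3.30e-07) and did not pass in PrE-T (-0.18 ± 0.078, adjusted p = 0.0531). Klf2 fell in PrE-T and did not pass in EPI-T (-0.22 ± 0.11, adjusted p = 0.0707). Klf5 rose in PrE-T by 0.82 ± 0.055 (adjusted p = 7.86e-10) and in EPI-T by 0.40 ± 0.055 (adjusted p = 6.36e-06). In these comparisons 2 of 4 members passed each time, against 67.3% of all genes for PrE-T and 64.9% for EPI-T. Both near-threshold values depended on the scaling and on single libraries, and Klf4 in PrE-T also passed with no filter on low counts (-0.17, adjusted p = 0.0145). Under library totals, which shift the median of all genes by -0.35 in PrE-T and -0.28 in EPI-T, Klf4 in PrE-T was -0.50 and Klf2 in EPI-T -0.44, and both passed. Without PrE-T replicate 1 Klf4 was -0.34, and without EPI-T replicate 1 Klf2 was -0.34, and both passed.

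**Figure D1:**
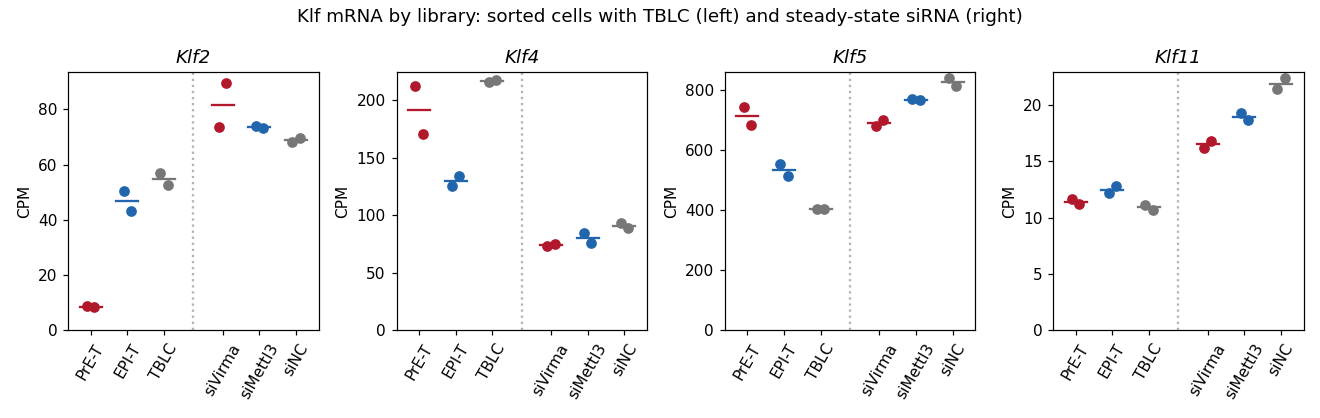
CPM of each member in each library (points) with the group mean (bar), for PrE-T, EPI-T and TBLC left of the dotted line and for diffTBLC with siVirma, siMettl3 and siNC right of it, scaled separately. Klf2 lies at 8.35 to 8.88 CPM in PrE-T and at 43.4 CPM or more elsewhere, and Klf5 is highest in PrE-T among the sorted cells and lowest with siVirma among the siRNA groups.

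Markers of other cells differed between these groups too. The summed PrE markers stood at 14275 to 14295 CPM in PrE-T, 185 CPM in both EPI-T libraries and 1358 to 1399 CPM in TBLC. Of 12 fibroblast and feeder markers, all had counts in PrE-T and TBLC and 10 in EPI-T (Lum and Twist2 at 0), and their sum was 199.6 to 201 CPM in PrE-T, 48.9 to 52.5 CPM in EPI-T and 1131 to 1163 CPM in TBLC. Of 10 trophectoderm markers, 9 had counts in each PrE-T library (Elf5 at 0) and 9 or 10 in EPI-T and TBLC, and their sum was 621 to 669 CPM in PrE-T, 75.3 to 86.3 CPM in EPI-T and 185 to 193 CPM in TBLC. The part of these cells in the Klf values was not tested. In bulk samples, fewer cells of a type and less RNA per cell cannot be told apart.

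The rest of the family and its partners moved in both directions. Of 13 other KLF genes, 11 were tested in PrE-T against EPI-T, 3 rose and 4 fell, with a median of -0.16 against 0.03 for all genes. Klf6, an immediate-early gene, rose by 1.87 ± 0.090 (adjusted p = 5.82e-12), Klf10, a TGF-beta-inducible relative of Klf11, fell by 1.34 ± 0.094 (adjusted p = 9.36e-10), and the repressor Klf12 fell by 2.19 ± 0.21 (adjusted p = 5.92e-08). Of 12 naive network partners 3 rose and 9 fell, with a median of -2.72. Esrrb (-2.76 ± 0.058, adjusted p = 1.17e-16) and Nanog (-3.72 ± 0.081, adjusted p = 1.74e-16) went the way of Klf2, and the T-box factor Tbx3 (3.03 ± 0.065, adjusted p = 1.68e-16) the way of Klf4 and Klf5.

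Among 11 LIF and STAT3 signalling genes, 5 rose and 2 fell in PrE-T against EPI-T, with a median of 0.09. The STAT3 target Pim1 (-2.53 ± 0.14, adjusted p = 4.11e-11) fell, while the receptor subunit gene Il6st (0.65 ± 0.069, adjusted p = 2.47e-07) rose with Klf4. Of 7 KLF corepressor genes 2 rose and 5 fell (median -0.64), with Sin3a at -1.09 ± 0.055 (adjusted p = 1.37e-11) and Ctbp2 at -1.59 ± 0.061 (adjusted p = 2.79e-13). SP genes, the nearest relatives of the KLF family, had 1 that rose and 4 that fell of 9, among them Sp5, a Wnt target (-5.10 ± 0.57, adjusted p = 4.49e-07).

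In unsorted cells Klf2 and Klf4 were lower, and Klf5 higher, in diffTBLC than in TBLC. At 0 h Klf2 had 62.2 and 65.3 CPM in diffTBLC, against 143 and 142 CPM in TBLC (-1.16 ± 0.037, adjusted p = 4.25e-46). Klf4 had 78.6 and 77.0 CPM in diffTBLC, against 207 and 204 CPM in TBLC (-1.40 ± 0.032, adjusted p = 2.05e-56). Both genes were low in each diffTBLC library, with no overlap. The Klf4 fall was larger here than in either sorted population against TBLC (-0.18 in PrE-T and -0.74 in EPI-T). These values come from tables scaled separately, and the difference between them was not tested.

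Klf5 had 404 and 410.4 CPM in diffTBLC, against 298 and 290.2 CPM in TBLC (0.47 ± 0.023, adjusted p = 1.78e-32). Klf11 had 18.1 and 17.2 CPM in diffTBLC and 17.1 and 18.4 CPM in TBLC, and did not pass (-0.00 ± 0.078, adjusted p = 0.963). Its groups overlapped, but it was -0.21 and passed under library totals, which shift the median of all genes by -0.18. Here 3 of 4 members passed, against 82.5% of 14463 genes. Of 10 other KLF genes tested 3 rose and 5 fell (median -0.22), with Klf16 at 1.16 ± 0.051 (adjusted p = 8.31e-36) and Klf8 at -1.49 ± 0.051 (adjusted p = 2.63e-43). PrE marker sums were 3154 to 3160 CPM in diffTBLC and 322 to 327 CPM in TBLC, and fibroblast and feeder sums were 187 to 190.4 CPM in diffTBLC and 432 to 444 CPM in TBLC. Their part in the Klf values was not tested.

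After 8 h in SLM the shifts were small, with Klf4 and Klf5 both higher. The TBLC_PlaB- values come from columns named TBLC_S, assigned to that arm because the labels place both arms in this table and the other columns are named TBLC_Ctrl. Klf4 had 186 and 187 CPM at 0 h in TBLC_PlaB-, against 160.5 and 167 CPM in TBLC_Ctrl (0.19 ± 0.032, adjusted p = 2.75e-05). Klf5 had 343 and 359.6 CPM in TBLC_PlaB-, against 296 and 321 CPM in TBLC_Ctrl (0.19 ± 0.027, adjusted p = 4.49e-07). Both were higher in every TBLC_PlaB- library, a size of about 1.14-fold. For these 2 of 4 members the share of all genes that passed was 1.25% of 14107. Klf2, at 223 and 224 CPM in TBLC_PlaB- and 214 and 244 CPM in TBLC_Ctrl, and Klf11 did not pass (adjusted p = 0.733 and 0.861), but Klf2 was -0.13 and passed without TBLC_Ctrl replicate 1. At 8 h Klf4 was therefore above its control, and after 3 days below it, in separate courses whose difference was not tested.

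With siRNA against the m6A writer subunit Virma, Klf5 was lower than with siNC. Without actinomycin D, Klf5 had 679 and 700.0 CPM with siVirma, against 838 and 811 CPM with siNC (-0.26 ± 0.035, adjusted p = 3.28e-10), and it passed without any 1 library (-0.28 to -0.24). Klf4 had 73.7 and 75.3 CPM with siVirma, against 93.1 and 89.1 CPM with siNC (-0.29 ± 0.096, adjusted p = 0.0424). Neither pair overlapped, but the Klf4 call was lost when any 1 of the 4 libraries was left out (adjusted p 0.106 to 0.239).

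Klf11 had 16.2 and 16.8 CPM with siVirma, against 21.4 and 22.3 CPM with siNC, and rested on 64 to 106 counts a library. It did not pass (-0.40 ± 0.19, adjusted p = 0.203), nor did Klf2 at 73.5 and 89.5 CPM with siVirma, against 68.3 and 69.7 CPM with siNC (0.24 ± 0.10, adjusted p = 0.136), although Klf2 was 0.37 and passed without siVirma replicate 1. The 2 members that passed stand against 7.11% of 12141 genes. No other KLF gene passed of 10 tested, and of 12 naive partners 1 rose and 2 fell, with a median of 0.01 against 0.00 for all genes. Tbx3 (-0.67 ± 0.075, adjusted p = 8.19e-15) and Sall4 (-0.23 ± 0.045, adjusted p = 3.54e-05) fell, and Tfcp2l1 rose (0.19 ± 0.063, adjusted p = 0.0464). PrE marker sums were 3292 to 3298 CPM with siVirma and 5322 to 5452 CPM with siNC, while Klf5 itself was above EPI-T in the sorted PrE-T cells. The part of PrE cells in the Klf5 value was not tested.

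In the libraries labelled siMettl3 no member passed, against 0.865% of all genes. Klf5 had 769.8 and 766 CPM there, against 838 and 811 CPM with siNC (-0.10 ± 0.034, adjusted p = 0.139). Klf4 was at -0.18 ± 0.093 (adjusted p = 0.508), Klf11 at -0.21 ± 0.18 (adjusted p = 0.779) and Klf2 at 0.09 ± 0.10 (adjusted p = 0.842). The siMettl3 and siVirma comparisons share the siNC libraries.

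All 4 members were higher in the Ythdf2 immunoprecipitate than in its input. Klf4 had 259 and 251 CPM in the IP, against 92.5 and 81.2 CPM in the input (1.56 ± 0.075, adjusted p = 5.22e-30), and Klf2 74.7 and 67.9 CPM, against 26.8 and 26.5 CPM in the input (1.42 ± 0.12, adjusted p = 2.79e-17). Klf11 had 53.2 and 54.9 CPM in the IP, against 26.0 and 23.4 CPM in the input (1.14 ± 0.13, adjusted p = 2.40e-12). No IP library overlapped an input. Klf5 had 412 and 419.6 CPM in the IP, against 281 and 312 CPM in the input, a smaller step of 0.49 ± 0.056 (adjusted p = 4.03e-12). The background was high, since 79.0% of 12364 genes passed and 40.2% were higher, so 4 of 4 is a weak distinction. Klf4 stood above 86.1% of all genes, Klf2 above 83.5%, Klf11 above 77.9% and Klf5 above 62.4%. Of 10 other KLF genes 6 were higher and 1 lower (median 0.77 against 0.02 for all genes), led by Klf9 (2.32 ± 0.12, adjusted p = 7.34e-28), Klf10 (1.22 ± 0.073, adjusted p = 7.34e-25) and Klf13 (2.45 ± 0.18, adjusted p = 1.48e-20), with Klf3 lower (-1.16 ± 0.17, adjusted p = 9.07e-09).

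In the Igf2bp3 immunoprecipitate Klf11 stood alone among the members, which is why it was chosen. It had 1165 and 1171 CPM in the IP, against 51.2 and 51.9 CPM in the input, a log2 enrichment of 4.50 ± 0.044 and rank 6 of 12904 genes. Klf5 had 1425 and 1410 CPM in the IP, against 960.3 and 931 CPM in the input (0.58 ± 0.019). Klf4 had 370.3 and 353 CPM in the IP, against 308 and 329 CPM in the input (0.18 ± 0.036, or -0.01 under library totals), and Klf2 was depleted, at 127 and 129 CPM in the IP and 219 and 225 CPM in the input (-0.80 ± 0.045). Among the other KLF genes Klf8 (1.43 ± 0.067) and Klf7 (1.06 ± 0.11) came next, and the list had a median of 0.49 against -0.01 for all genes. Klf10, the TGF-beta-inducible relative of Klf11, was at -0.39 ± 0.053, and the corepressor genes had a median of -0.05.

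The inputs of the 2 RIP tables differed, although both are labelled diffTBLC. PrE marker sums were 5204 to 5299 CPM in the Igf2bp3 inputs and 695 to 699 CPM in the Ythdf2 inputs, and Klf2 was at 219 to 225 CPM in the Igf2bp3 inputs and 26.5 to 26.8 CPM in the Ythdf2 inputs, in tables scaled separately. PrE marker sums in the IP libraries were 9644 to 9649.5 CPM for Igf2bp3 and 739.5 to 744 CPM for Ythdf2. Their part in the Klf values was not tested.

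**Figure D2:**
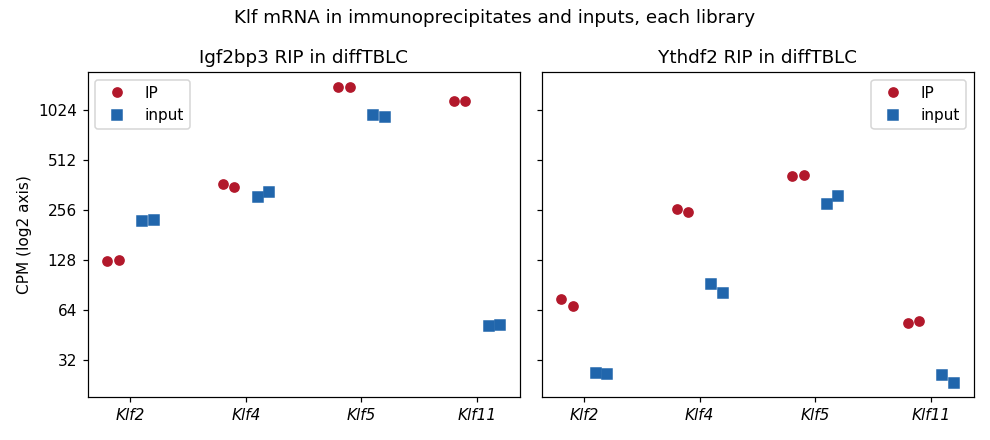
CPM on a log2 axis of each member in each IP (circles) and input (squares) library of the Igf2bp3 RIP and the Ythdf2 RIP in diffTBLC. Klf11 separates at 1165 and 1171 CPM in the Igf2bp3 IP from 51.2 and 51.9 CPM in its input, and all 4 members lie above their inputs in the Ythdf2 RIP.

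Under actinomycin D the members were lost at different rates, and in the TBLC arms Klf2 was lost fastest of the members. Slopes are log2 changes per hour relative to the centre of all transcripts, since no spike-in is described, and give no half-lives. In TBLC the slope was -1.23 ± 0.060 for Klf2, -0.94 ± 0.071 for Klf4, -0.73 ± 0.039 for Klf11 and -0.61 ± 0.023 for Klf5, and Klf2 ranked 37 from the lowest of 14463 genes. Klf2 had 143 and 142 CPM at 0 h, 81.3 and 79.6 CPM at 1 h, 29.6 and 32.0 CPM at 2 h, and 10.6 and 10.3 CPM at 3 h in TBLC. At 3 h, 7.35% of the 0 h level of Klf2 was left, 13.2% of Klf4, 22.7% of Klf11 and 28.7% of Klf5. TBLC_Ctrl, the same medium in another table, kept Klf2 lowest (-1.14 ± 0.023), where Klf11 had -1.003 ± 0.075 and Klf4 -0.98 ± 0.023. The Klf11 steps there were -1.61, -0.79 and -0.17 from hour to hour, and over 1 to 3 h its slope was -0.51, against -1.003 for Klf4.

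The fall of Klf2 differed between diffTBLC and TBLC within their own course. In diffTBLC it had 62.2 and 65.3 CPM at 0 h, 24.7 and 24.6 CPM at 1 h, 16.02 and 16.5 CPM at 2 h, and 11.1 and 9.42 CPM at 3 h, so the arms met at 3 h. The slope was -0.90 ± 0.064 in diffTBLC and -1.23 ± 0.060 in TBLC, a difference of 0.34 ± 0.092 (adjusted p = 0.0288), lost without either TBLC library at 3 h (0.29 to 0.30, adjusted p 0.0815 to 0.0824). A straight line hides the order of the steps. In the first hour Klf2 changed by -1.37 in diffTBLC and -0.82 in TBLC, and from 1 to 3 h it kept 41.6% in diffTBLC and 13.0% in TBLC. Over 1 to 3 h alone the slope difference was 0.82 ± 0.059 (adjusted p = 6.28e-13). In the control arms siNC1 and siNC2, also diffTBLC, the Klf2 slope over 0 to 3 h was -1.23 ± 0.068 and -1.27 ± 0.062, close to TBLC. Over 1 to 3 h it was -1.03 and -1.11 there, against -0.63 in diffTBLC and -1.45 in TBLC. These arms come from other courses, and their difference from diffTBLC was not tested.

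Klf4 showed the same order without passing over 0 to 3 h (0.27 ± 0.10, adjusted p = 0.116), with 24.4% left at 3 h in diffTBLC and 13.2% in TBLC, and it passed over 1 to 3 h (0.50 ± 0.069, adjusted p = 5.51e-07). Klf5 did not pass over 0 to 3 h (0.04 ± 0.031, adjusted p = 0.544) but did over 1 to 3 h (0.15, adjusted p = 4.96e-05), and Klf11 passed in neither (0.10 ± 0.058, adjusted p = 0.293 over 0 to 3 h). Over 0 to 3 h 1 of 4 members passed, against 8.21% of all genes, and over 1 to 3 h 3 of 4, against 32.7%. Of 10 other KLF genes 4 had higher slopes in diffTBLC and none lower, with Klf10 (0.35 ± 0.040, adjusted p = 3.32e-05), Klf16 (0.30 ± 0.049, adjusted p = 0.00101) and Klf3 (0.25 ± 0.046, adjusted p = 0.00271) first. Between TBLC_PlaB- and TBLC_Ctrl no member passed (adjusted p 0.595 to 0.937), where 0.411% of 14107 genes did, and the differences lay between -0.04 and 0.05. Over 1 to 3 h alone Klf2 was 0.16 (adjusted p = 0.00392) and Klf11 -0.39 (adjusted p = 0.0323), and both passed, where 22.1% of all genes did.

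**Figure D3:**
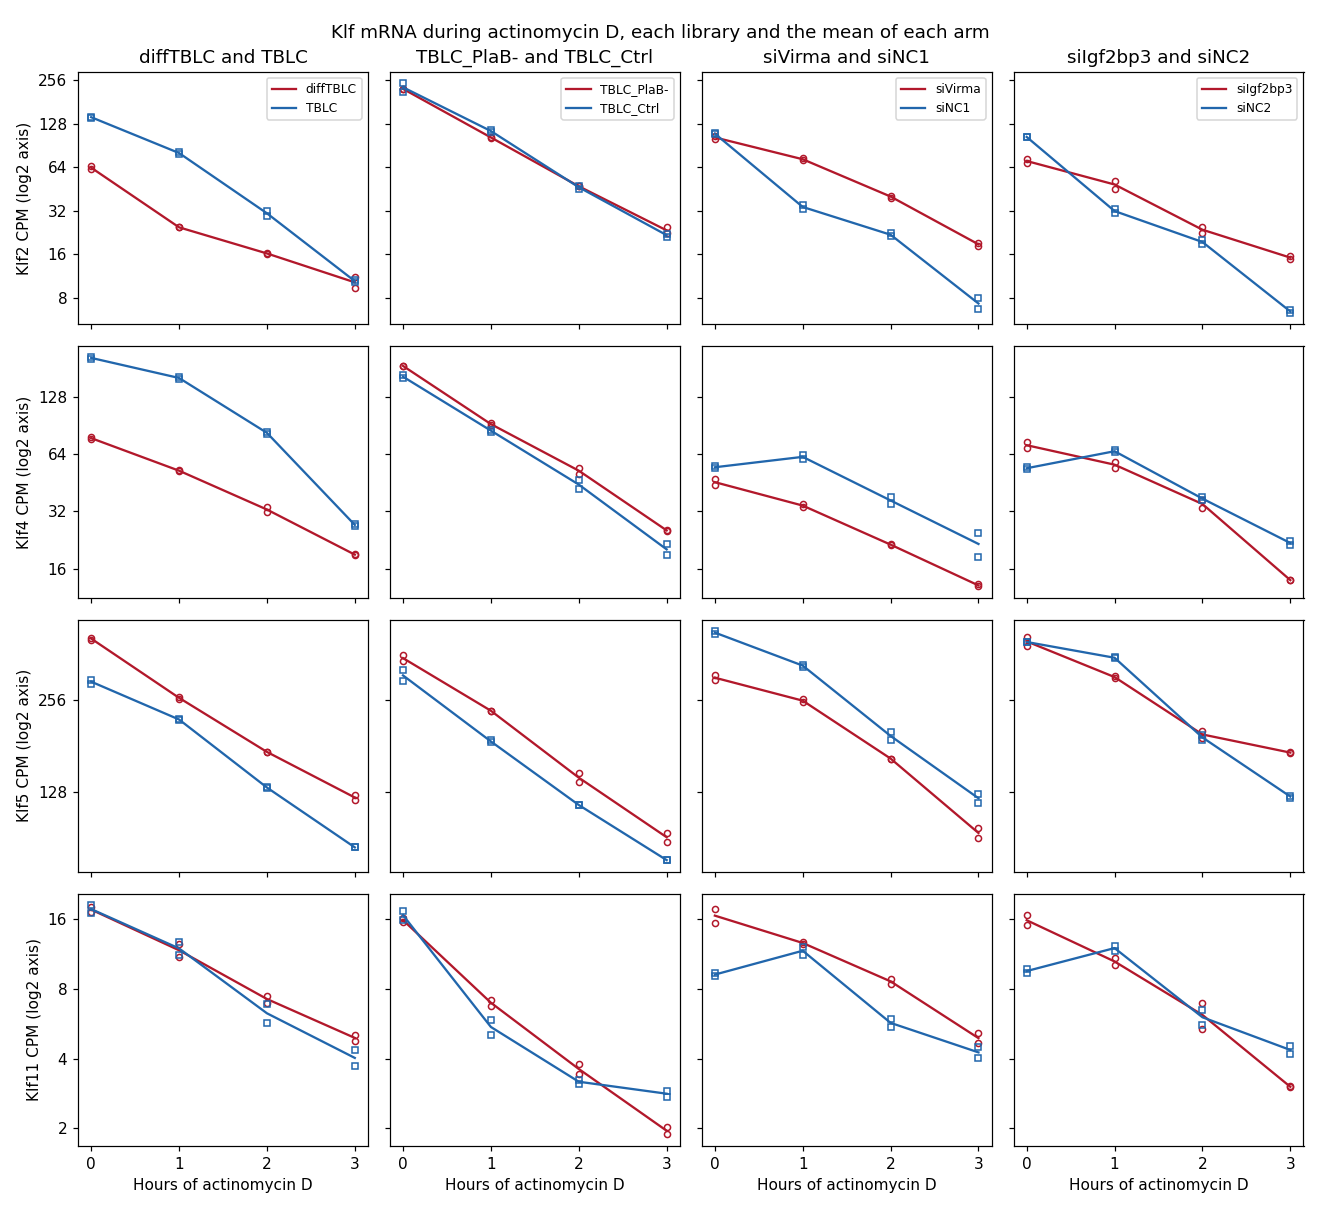
CPM on a log2 axis against hours of actinomycin D, for each member (rows) and course (columns), with each library as a point and the arm mean as a line. Klf2 in diffTBLC and TBLC overlaps at 3 h at 9.42 to 11.1 CPM, and Klf4 and Klf11 in siNC1 and siNC2 are higher at 1 h than at 0 h.

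In the siVirma course Klf2 was higher than in siNC1 from 1 h of actinomycin D on, but not at 0 h, while Klf4 and Klf5 were lower throughout. Klf2 had 106 and 101 CPM with siVirma and 111 and 109 CPM with siNC1 at 0 h, which did not pass (-0.09 ± 0.046, adjusted p = 0.105, but -0.12 and past the threshold in a fit of only the libraries compared). At 1 h it had 74.1 and 71.7 CPM with siVirma, against 35.1 and 33.0 CPM with siNC1. At 3 h it had 19.2 and 18.4 CPM, against 7.94 and 6.71 CPM with siNC1. The libraries did not overlap at any hour, with siVirma below siNC1 at 0 h and above it later. The mean difference of 1 to 3 h was 1.10 ± 0.045 (adjusted p = 3.45e-20).

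Klf2 ranked 316 from the highest of 13664 genes in that difference, and was higher in 6 of 6 siVirma libraries. Klf4 had 33.6 and 35.0 CPM with siVirma at 1 h, against 60.2 and 63.7 CPM with siNC1, and over 1 to 3 h it was -0.77 ± 0.050 (adjusted p = 3.87e-15), after -0.26 ± 0.066 at 0 h (adjusted p = 0.00102). Klf5 had 298 and 308 CPM with siVirma at 0 h, against 430.3 and 422 CPM with siNC1 (-0.49 ± 0.042, adjusted p = 9.74e-12), and -0.34 ± 0.027 over 1 to 3 h (adjusted p = 6.43e-13). Klf4 and Klf5 thus lay below siNC1 at every hour, the direction they had without actinomycin D. At 0 h the Klf4 value was -0.07 and did not pass under library totals, which shift the median of all genes by 0.24.

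Klf11 went the other way in this course, at 15.5 and 17.8 CPM with siVirma at 0 h, against 9.39 and 9.08 CPM with siNC1 (0.84 ± 0.10, adjusted p = 9.83e-09). At 0 h Klf11 averaged 17.7 CPM in diffTBLC, 15.9 CPM in siIgf2bp3 and 9.57 CPM in siNC2, in tables scaled separately. In siNC1 it averaged 9.24 CPM at 0 h and 11.7 CPM at 1 h. The part of the siNC1 libraries at 0 h in the Klf11 value was not tested. Over 1 to 3 h the Klf11 difference was 0.30 ± 0.077 (adjusted p = 0.000934). All 4 members passed over 1 to 3 h, against 71.5% of all genes, and 3 of 4 at 0 h, against 60.3%. PrE marker sums were 992 to 1074 CPM with siVirma at all hours, and with siNC1 1830 to 1894 CPM at 0 h and 2414 to 3167 CPM later, and their part in these values was not tested. Of the naive partners 1 rose and 9 fell over 1 to 3 h (median -0.25), with Tbx3 at -1.15 ± 0.042 (adjusted p = 1.76e-21) and Nr5a2 at -1.05 ± 0.051 (adjusted p = 2.11e-18). Of 11 LIF and STAT3 genes 3 rose and 6 fell, with Pim1 (1.23 ± 0.053, adjusted p = 9.90e-20) higher and Il6st (-0.86 ± 0.042, adjusted p = 3.16e-18) and Stat3 (-0.49 ± 0.028, adjusted p = 1.31e-16) lower.

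As slopes over 0 to 3 h, Klf2 was lost more slowly with siVirma, at -0.82 ± 0.067, than with siNC1, at -1.23 ± 0.068. The difference of 0.41 ± 0.095 passed (adjusted p = 0.0337) as 1 of 4 members, against 8.94% of all genes, or 1221, a count that ranged from 0 to 5136 when 1 library was left out and was 0 over 1 to 3 h. Over 1 to 3 h it was 0.06 (adjusted p = 1.00). It also did not pass under library totals (0.36, adjusted p = 0.0677), with no filter (0.42, adjusted p = 0.0566) or under ribosomal protein scaling (0.099, adjusted p = 0.424). Leaving out each of 16 libraries in turn gave 0.36 to 0.45, and the call was lost in 11 (both replicates at 0 h and 3 h of both arms, both siVirma replicates at 2 h and siVirma replicate 2 at 1 h). Klf2 fell by 1.68 in siNC1 in the first hour and by 0.50 with siVirma. In the same hour Klf4 and Klf11 in siNC1 stood at 113% and 127% of their 0 h level, in an arm given actinomycin D.

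In the siIgf2bp3 course 3 members differed in direction between 0 h and the mean of 1 to 3 h. In the first hour Klf2, Klf4 and Klf11 changed by -1.70, 0.30 and 0.33 in siNC2. The same steps were -0.54, -0.34 and -0.59 in the libraries labelled siIgf2bp3. The part of the siNC2 libraries at 0 h was not tested. Klf2 had 73.0 and 68.7 CPM in the libraries labelled siIgf2bp3 at 0 h, against 104.4 and 103.5 CPM in siNC2 (-0.55 ± 0.050, adjusted p = 6.11e-11). Over 1 to 3 h it was higher in 6 of 6 (0.71 ± 0.054, adjusted p = 6.05e-13), with 14.8 and 15.6 CPM at 3 h, against 6.56 and 6.35 CPM in siNC2. Klf4 was higher at 0 h (0.40 ± 0.052, adjusted p = 6.62e-08) and lower over 1 to 3 h (-0.33 ± 0.041, adjusted p = 2.46e-08).

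Klf11, the member most enriched in the Igf2bp3 IP, had 16.7 and 15.1 CPM at 0 h in the libraries labelled siIgf2bp3, against 9.37 and 9.76 CPM in siNC2 (0.74 ± 0.099, adjusted p = 1.35e-07). Over 1 to 3 h it was -0.23 ± 0.087 (adjusted p = 0.0215), with 3.00 and 3.04 CPM at 3 h, against 4.53 and 4.18 CPM in siNC2. With DESeq2 Klf11 was -0.20 over 1 to 3 h and did not pass (adjusted p = 0.111). Its libraries did not overlap at 1 and 3 h and overlapped at 2 h, and leaving out each of 12 libraries in turn gave -0.30 to -0.14, with the call lost in 5 (replicate 2 at 2 h and both at 3 h of siIgf2bp3, replicate 1 at 2 h and at 3 h of siNC2). Klf5 did not pass at 0 h (0.01 ± 0.038, adjusted p = 0.889, but -0.12 and past the threshold in a fit of only the libraries compared) and was 0.10 ± 0.024 over 1 to 3 h (adjusted p = 0.000455), but -0.03 under library totals. Here 3 of 4 members passed at 0 h, against 65.7% of 13580 genes, and 4 of 4 over 1 to 3 h, against 70.0%. PrE marker sums in the libraries labelled siIgf2bp3 were 2040 to 2214 CPM at all hours, against 1867 to 1883 CPM at 0 h and 2669 to 3698 CPM later in siNC2, and their part was not tested.

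Slopes over 0 to 3 h differed for 3 of 4 members here, where 52.4% of all genes passed. Klf2 was lost more slowly in the libraries labelled siIgf2bp3 (-0.77 ± 0.061) than in siNC2 (-1.27 ± 0.062), a difference of 0.50 ± 0.087 (adjusted p = 0.00209). Klf11 was lost faster (-0.78 ± 0.087 against -0.44 ± 0.089 in siNC2, a difference of -0.33 ± 0.13, adjusted p = 0.0368), and Klf5 more slowly (0.17 ± 0.066, adjusted p = 0.0401). None of these passed over 1 to 3 h (adjusted p 0.108 to 0.724), where Klf2 was 0.26, Klf11 -0.13 and Klf5 0.34, and no gene of the table passed there. At 1 h Klf4 and Klf11 stood at 123% and 126% of their 0 h level in siNC2. Klf4 did not pass (-0.28 ± 0.14, adjusted p = 0.109). Leaving out each of 16 libraries in turn, Klf11 ranged from -0.38 to -0.25 and its call was lost in 6 (replicate 1 at 0 h and both at 3 h of siIgf2bp3, both at 0 h and replicate 1 at 3 h of siNC2). Klf5 ranged from 0.15 to 0.21 and its call was lost in 5 (both at 0 h of siIgf2bp3, replicate 1 at 2 h and both at 3 h of siNC2). Klf2 passed each time (0.47 to 0.52). Scaled to ribosomal protein genes, which shifts the median of all genes by -0.63, Klf2 was -0.12 and Klf5 -0.40, and neither passed.

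**Figure D4:**
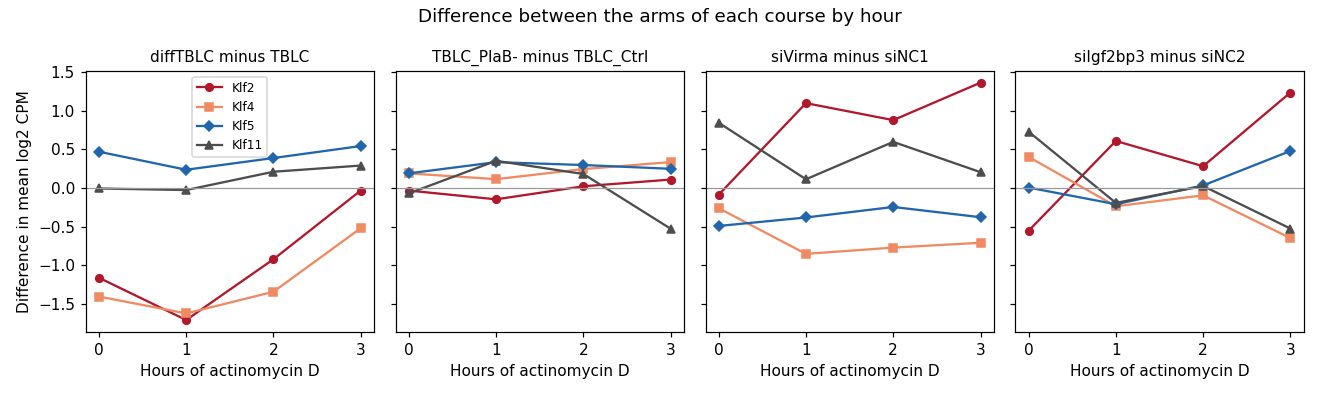
Difference in mean log2 CPM between the arms of each course (diffTBLC minus TBLC, TBLC_PlaB- minus TBLC_Ctrl, siVirma minus siNC1, siIgf2bp3 minus siNC2) against hours of actinomycin D, a line for each member. Klf2 lies below 0 at 0 h and above it from 1 h on in both siRNA courses, and approaches 0 at 3 h in diffTBLC against TBLC.

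The genes most like each member were sought across 38 groups. Over group means of log2 CPM centred on each table, the highest Pearson r was 0.97 with Arl4a for Klf2, 0.98 with Arid5b for Klf4, 0.97 with Ippk for Klf5 and 0.97 with Adnp2 for Klf11, among 7924 genes. Next came Fbxl14, Ndufaf4, Ythdf2 and Dyrk3 for Klf2, Traf6, Pnrc2, Gna13 and Slc30a1 for Klf4, Itpkc, Ppp1r15b, Cited2 and Zfp830 for Klf5, and Errfi1, Fem1c, Ddias and Dusp16 for Klf11. Between members r lay from 0.78 for Klf2 and Klf5 to 0.89 for Klf5 and Klf11. The groups share tables, depth and hours of actinomycin D, which most of these points trace, so these values are a description.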

How the data were processed

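Per the labels' protocols, libraries were made from total RNA with either of 2 kits, and which kit served which library is not given. The authors deposited raw counts per gene symbol in 9 tables. The submitters' processing notes name build mm39 and these tools, with no order: Subread, STAR 2.7.11b, DESeq2, FastQC 0.12.1 and Trim Galore. Here every table was TMM-scaled and fitted separately over all its libraries (edgeR 4.0.16 in R 4.3.3, quasi-likelihood test), after filterByExpr. P-values were adjusted by Benjamini-Hochberg over all genes of the table, with a threshold of 0.05, in 16 comparisons, and ± after a log2 change is its standard error. Courses were fitted as a mean for each arm and hour, and as 1 slope for each arm. In 1 course table, the TBLC_S columns were taken as TBLC_PlaB-, since the other arm had columns under its own name. The fits were tested on simulated data. None of the 43 replicate pairs was identical. Beside the members, the text names up to 3 genes a list by lowest adjusted p, KLF genes, genes that check the labels, and the 5 genes most like each member. The members and lists were chosen with earlier results of these data known. The m6A libraries and peaks were not used here, and TBLC2 entered no comparison. Alternatives were library totals, RLE size factors, no filter, DESeq2 1.42.0, a replicate block, a fit of only the libraries compared, and leaving out each library. Slopes were also computed under ribosomal protein scaling, over 1 to 3 h, and from 3 h against 0 h.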

Additional observations from a re-analysis of the deposited data

Results flagged for a closer look

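In 3 courses the loss of a member under actinomycin D differed between the arms by a test of the slope difference itself (edgeR's quasi-likelihood test). Klf2 differed by 0.34 log2 per hour between diffTBLC and TBLC (adjusted p = 0.0288), by 0.41 between siVirma and siNC1 (adjusted p = 0.0337) and by 0.50 between siIgf2bp3 and siNC2 (adjusted p = 0.00209). Klf11 differed by -0.33 (adjusted p = 0.0368) and Klf5 by 0.17 (adjusted p = 0.0401) between siIgf2bp3 and siNC2. For Klf2 and Klf5 these tests use libraries whose values also chose the members, while Klf11 was chosen in the RIP libraries. The diffTBLC call was lost without either TBLC library at 3 h (0.29 to 0.30). The siVirma call was lost without 11 of 16 libraries in turn (0.36 to 0.45) and was 0.06 over 1 to 3 h. It was also lost under library totals (0.36), with no filter (0.42) and under ribosomal protein scaling (0.099). None of the siIgf2bp3 calls passed over 1 to 3 h (adjusted p 0.108 to 0.724), and Klf11 and Klf5 also lost theirs without 6 and 5 of 16 libraries in turn. Other values had opposite directions in every library of both comparisons, and those differences were not tested. Klf2 was -0.086 with siVirma at 0 h of the course but 0.24 without actinomycin D, and neither passed (adjusted p = 0.105 and 0.136). Over 1 to 3 h it was 1.10. Klf11 was 0.84 with siVirma at 0 h and 0.30 over 1 to 3 h, but -0.40 without actinomycin D, which did not pass (adjusted p = 0.203). In the libraries labelled siIgf2bp3, Klf2 was 0.71 over 1 to 3 h and -0.55 at 0 h, and Klf4 was -0.33 over 1 to 3 h and 0.40 at 0 h. The 0 h libraries of siNC1 and siNC2 stood apart from the later hours, and their part in these values was not tested.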

How the results depend on the processing

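Of 960 alternative values of the members between groups, 876 were counted as unchanged. For tested values this meant the same side of the threshold, and the same direction wherever either fit passed. Values that passed in neither fit could change sign, as Klf11 did in the PlaB- slope (-0.14 to 0.091 with 1 library left out). Igf2bp3 RIP values had no test and had to stay within their standard error. Of 480 alternative slopes within an arm 93 moved by more than their standard error and 0 changed sign. Those that moved were 28 of 32 over 1 to 3 h, 27 of 32 under ribosomal protein scaling and 23 of 32 under library totals. The cause of the changes was not tested. For each alternative other than leaving out a library, the tested member values listed are those that changed in call or direction. Library totals gave Klf11 -0.21 in diffTBLC at 0 h, Klf2 -0.44 in EPI-T and Klf4 -0.50 in PrE-T against TBLC, and Klf5 0.090 with siIgf2bp3 at 0 h, which all passed. Klf4 at -0.068 with siVirma at 0 h and Klf5 at -0.034 with siIgf2bp3 over 1 to 3 h did not pass. Nor did the slope differences of 0.36 (Klf2, siVirma) and 0.045 (Klf5, siIgf2bp3). Library totals gave slope counts of 1 (siVirma) and 27 (PlaB-). In the Igf2bp3 RIP they gave Klf11 4.30, Klf2 -0.996, Klf4 -0.013 and Klf5 0.39. No filter gave 4.57, -0.73, 0.25 and 0.65 in that order. It gave Klf4 -0.17 in PrE-T against TBLC, Klf2 -0.12 with siVirma and Klf5 -0.11 with siIgf2bp3 at 0 h, which all passed. The Klf2 slope difference with siVirma was 0.42 and no longer passed (adjusted p = 0.0566). Slope counts with no filter were 6 (siVirma) and 110 (PlaB-). Only the libraries compared gave Klf2 -0.12 with siVirma and Klf5 -0.12 with siIgf2bp3 at 0 h, which both passed, and 95 genes for PlaB- at 0 h. Klf4 was -0.29 there with siVirma without actinomycin D and no longer passed (adjusted p = 0.0516). DESeq2 gave Klf4 -0.29 with siVirma without actinomycin D (adjusted p = 0.304) and Klf11 -0.20 with siIgf2bp3 over 1 to 3 h (adjusted p = 0.111), and neither passed. It gave 48 (siMettl3), 279 (siVirma), 73 (PlaB-, 0 h), 3172 (siVirma slope) and 203 (PlaB- slope) genes. Ribosomal protein scaling gave 111 (diffTBLC), 0 (siVirma), 11249 (siIgf2bp3) and 14 (PlaB-) genes by slope. It gave Klf2 0.099 with siVirma, and Klf2 -0.12, Klf4 -0.81 and Klf5 -0.40 with siIgf2bp3, of which only Klf4 passed. Slopes over 1 to 3 h gave 4725 (diffTBLC), 0 (siVirma), 0 (siIgf2bp3) and 3118 (PlaB-) genes, Klf4 0.50 and Klf5 0.15 in diffTBLC, Klf2 0.063 with siVirma, Klf11 -0.13, Klf2 0.26 and Klf5 0.34 with siIgf2bp3, and Klf11 -0.39 and Klf2 0.16 with PlaB-. The 3 h against 0 h change per hour gave 4187 (diffTBLC), 7968 (siVirma) and 885 (PlaB-) genes, Klf4 0.28 in diffTBLC, Klf11 -0.22 and Klf4 -0.15 with siVirma, and Klf4 -0.36 with siIgf2bp3. Deviations of same-numbered replicates had median correlations of -0.027 to 0.0627 by table, with single pairs of groups from -0.118 to 0.282 in the siVirma course and from -0.0642 to 0.327 in the siIgf2bp3 course, and not every pair was over 0.1, so no pairing was shown. The replicate block gave Klf4 -0.18 in PrE-T against TBLC (adjusted p = 0.0331), kept 67 of 68 member calls, and gave 406 genes by siVirma slope, against 1221 without it. Leaving out 1 library gave counts of 641 to 1561 (diffTBLC slope), 4603 to 8190 (siIgf2bp3 slope), 0 to 5136 (siVirma slope), 8 to 178 (PlaB- slope), 71 to 211 (PlaB-, 0 h), 499 to 623 (siVirma) and 31 to 51 (siMettl3). It gave Klf2 0.29 to 0.39 (diffTBLC slope), 0.36 to 0.45 (siVirma slope), -0.34 to -0.12 (EPI-T against TBLC), 0.09 to 0.37 (siVirma) and -0.13 to 0.060 (PlaB-, 0 h), Klf4 -0.34 to -0.032 (PrE-T against TBLC), -0.32 to -0.26 (siVirma) and 0.14 to 0.23 (Igf2bp3 RIP), Klf5 0.56 to 0.61 (Igf2bp3 RIP) and 0.15 to 0.21 (siIgf2bp3 slope), and Klf11 -0.30 to -0.14 (siIgf2bp3, 1 to 3 h) and -0.38 to -0.25 (siIgf2bp3 slope). Depth limits Klf11 at late hours, with 25 and 31 counts in TBLC_PlaB- at 3 h.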

Other observations

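TBLC2, cells in 2MYCP medium with no comparison group, had 126 and 142 CPM of Klf2, 194.5 and 207 CPM of Klf4, 698 and 674 CPM of Klf5, and 48.4 and 60.9 CPM of Klf11, in a table scaled on its own.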
